A study of Mus musculus with 3 samples.

Results

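The fatty acid elongases and desaturases described here are 7 genes chosen by name: Elovl1, Elovl2, Elovl3, Elovl5, Fads1, Fads2 and Scd2. Each of these 7 members had 1 row, with an estimate in all 3 libraries, out of 23850 rows per table. Liver RNA depleted of ribosomal RNA was sequenced from mice of 16 weeks on a C57BL6J/FVB background, with 1 library for each of 3 groups. The groups were wildtype mice fed ad libitum (wt AL), Ercc1 delta/- mice fed ad libitum (Ercc1 AL) and Ercc1 delta/- mice under diet restriction (Ercc1 DR). The delta/- genotype combines a null allele with a second mutant allele of Ercc1, a nucleotide excision repair gene whose loss gives a progeroid mouse, and all mice of both Ercc1 groups carry it. The labels state neither the degree and duration of the restriction, nor the sex of the mice, the hour of sampling or how many animals a library holds. No restricted wildtype group was analysed here. Ercc1 itself was low, at 0.461 FPKM in wt AL, 0.573 FPKM in Ercc1 AL and 0.475 FPKM in Ercc1 DR, and since the labels do not say which part of the transcript the alleles change, these levels do not check the genotype. A difference between libraries therefore has no replicate check, and no test, SD or p-value is given.

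Elongases of the endoplasmic reticulum catalyse the condensation step that lengthens a fatty acyl-CoA by a unit drawn from malonyl-CoA, and desaturases place double bonds into the chain. In liver, FADS2 and FADS1, with ELOVL5 and ELOVL2 between and after them, turn the essential fatty acids linoleic and alpha-linolenic acid into arachidonic and docosahexaenoic acid. ELOVL1 and ELOVL3 lengthen saturated and monounsaturated chains, and SCD2 is a stearoyl-CoA desaturase that makes monounsaturated fatty acids. SREBP-1c, LXR and PPAR-alpha are known regulators of several of these genes, and Elovl3 is also known for male-biased and daily rhythmic expression in mouse liver.

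Sequences before the start sites are shown because Elovl5 on one side and Elovl1 and Elovl2 on the other differed in opposite directions between the freely fed libraries, with Fads2 beside them. RefSeq promoters (GRCm38.p6, the assembly of mm10) whose start is the gene start in the deposited tables were matched for 4 of 7 members. Each line gives the 250 bases before the start, 5′ to 3′ on the strand of the gene, and capitals mark CCAAT (the box of NF-Y), CACGTG (an E-box) and GGGCGG (a GC box) on either strand.
Elovl5 (chr9:77917115-77917364, plus strand): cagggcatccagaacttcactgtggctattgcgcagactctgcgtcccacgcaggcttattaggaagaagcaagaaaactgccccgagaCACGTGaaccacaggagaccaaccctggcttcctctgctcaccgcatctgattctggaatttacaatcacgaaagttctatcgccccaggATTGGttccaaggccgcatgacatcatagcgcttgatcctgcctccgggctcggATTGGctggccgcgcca
Elovl2 (chr13:41220404-41220653, minus strand): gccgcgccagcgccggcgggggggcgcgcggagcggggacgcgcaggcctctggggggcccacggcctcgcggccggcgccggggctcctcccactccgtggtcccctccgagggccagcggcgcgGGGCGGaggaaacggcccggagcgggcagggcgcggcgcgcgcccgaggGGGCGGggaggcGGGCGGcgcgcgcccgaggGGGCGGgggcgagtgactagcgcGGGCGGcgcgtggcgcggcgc
Elovl1 (chr4:118427843-118428092, plus strand): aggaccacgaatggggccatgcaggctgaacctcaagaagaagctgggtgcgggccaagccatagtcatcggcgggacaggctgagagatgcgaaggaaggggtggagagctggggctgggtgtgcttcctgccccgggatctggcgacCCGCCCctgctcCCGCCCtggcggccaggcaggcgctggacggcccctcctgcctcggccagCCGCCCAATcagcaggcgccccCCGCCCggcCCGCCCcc
Fads2 (chr19:10101504-10101753, minus strand): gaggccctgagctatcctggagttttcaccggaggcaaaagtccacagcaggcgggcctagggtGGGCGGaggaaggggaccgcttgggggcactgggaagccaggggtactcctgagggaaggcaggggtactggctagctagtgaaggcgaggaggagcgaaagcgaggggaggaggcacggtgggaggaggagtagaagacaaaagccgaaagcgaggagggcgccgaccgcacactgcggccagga

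The Elovl5 window held 2 CCAAT boxes, both on the opposite strand, and 1 CACGTG, and no GC box. Elovl2 had 5 GC boxes and none of the others, and Elovl1 had 5 GC boxes and 1 CCAAT box, which overlapped a GC box. Fads2 had a single GC box. Of 32851 such windows in the RefSeq table, 33.8% held CCAAT, 6.02% CACGTG and 32.7% GGGCGG. The sterol response element TCACNCCAC, in 1.05% of windows, and direct repeats of the nuclear receptor half-site AGGTCA spaced by 1 base (0.0335%) or 4 bases (0.0152%) were in none of the 4, on either strand. G and C made up 55.6% of the Elovl5 window, 87.2% of Elovl2, 72% of Elovl1 and 64.8% of Fads2, against a median of 52.4% over all windows. A match describes letters in a short window and not a site in use.

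Levels are in FPKM, a fragment count divided by transcript length and library size, so genes can be set side by side. The lower and upper bounds deposited with each FPKM describe how precisely a single library was counted, and say nothing of how animals differ. In bulk RNA, fewer cells of a type and less RNA per cell cannot be told apart. The bounds imply about 19.0 M fragments for wt AL, 25.1 M for Ercc1 AL and 25.04 M for Ercc1 DR. Where 3 levels of a gene are listed without library names, their order is wt AL, Ercc1 AL, Ercc1 DR. The libraries differed in general level: for 9053 genes that reached 1 FPKM in every library, the median log2 FPKM ratio was 0.49 for Ercc1 AL against wt AL, 0.34 for Ercc1 DR against Ercc1 AL and 0.78 for Ercc1 DR against wt AL. Log2 ratios below are of FPKM + 1 after this shift was removed (rescaled), unless called as deposited, and the pseudocount of 1 understates the ratios of low genes. In 13 of the 21 member values the FPKM lay above its own upper bound. Fads2 was at 1.14 times the midpoint of its interval in each library. For Elovl3 the excess varied, with an FPKM of 1.056, 1.075 and 1.001 times the midpoint in the order wt AL, Ercc1 AL, Ercc1 DR.

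The enzymes of polyunsaturated fatty acid synthesis were the abundant members. Fads2, the desaturase of the first and a later step of the pathway (chromosome 19, 10064164 to 10101503, minus strand, mm10), stood at 76.97 FPKM in wt AL (deposited bounds 65.6 to 69.2), at 101 FPKM in Ercc1 AL (86.8 to 90.8) and at 86.8 FPKM in Ercc1 DR (74.1 to 77.9). It was highest in the freely fed mutant and lowest in wildtype by FPKM, and the intervals did not overlap. Fads1, the desaturase that forms arachidonic and eicosapentaenoic acid (chromosome 19, 10182888 to 10196872, plus strand), was at 52.3 FPKM in wt AL (48.6 to 50.9), 47.1 FPKM in Ercc1 AL (43.8 to 45.7) and 58.7 FPKM in Ercc1 DR (54.6 to 56.96). Here the freely fed mutant was the lowest library by FPKM, where for Fads2 it was the highest, and the intervals did not overlap either. After rescaling, Fads1 had a log2 ratio of -0.016 in Ercc1 DR against Ercc1 AL (-0.076 to 0.044 from the bounds). Fads2 had -0.093 in Ercc1 AL against wt AL, so this contrast is one of deposited FPKM. The genes lie 81.4 kb apart, and Fads3, another gene of the cluster 4.5 kb from Fads2, was low, at 0.703, 1.0 and 0.635 FPKM.

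Elovl5, which elongates the product of the first desaturation (chromosome 9, 77917365 to 77984519, plus strand), was at 68.8 FPKM in wt AL (62.99 to 65.9), 41.8 FPKM in Ercc1 AL (38.2 to 40.1) and 81.1 FPKM in Ercc1 DR (74.4 to 77.2). The freely fed mutant stood apart as the low library, and the restricted mutant was above wildtype by FPKM. Elovl2, which carries chains on towards docosahexaenoic acid (chromosome 13, 41182382 to 41220403, minus strand), was at 26.5 FPKM in wt AL (24.6 to 26.04), 50.2 FPKM in Ercc1 AL (47.1 to 48.8) and 54.5 FPKM in Ercc1 DR (51.1 to 53.2). Here wildtype was the low library and both mutant libraries were high and close together.

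The remaining members were lower and more variable. Elovl1, the elongase of saturated and monounsaturated very long chains (chromosome 4, 118428093 to 118432916, plus strand), was at 1.97 FPKM in wt AL (1.60 to 2.13), 4.10 FPKM in Ercc1 AL (3.48 to 4.22) and 6.85 FPKM in Ercc1 DR (5.88 to 6.92). It went up from library to library in that order. Elovl3 (chromosome 19, 46131899 to 46135694, plus strand) was at 3.34 FPKM in wt AL (2.83 to 3.5), 11.6 FPKM in Ercc1 AL (10.2 to 11.4) and 0.304 FPKM in Ercc1 DR (0.213 to 0.394). The freely fed mutant was the high library and the restricted mutant the low one, where the interval implies 45 fragments, against 363 in wt AL and 1345 in Ercc1 AL. Scd2 (chromosome 19, 44293676 to 44306862, plus strand) was at 5.96 FPKM in wt AL (5.71 to 6.27), 1.30 FPKM in Ercc1 AL (1.20 to 1.41) and 2.86 FPKM in Ercc1 DR (2.68 to 3.04), so that wildtype was the high library and the restricted mutant lay between the others. Cdc20 and Pitx3 are antisense to Elovl1 and Elovl3 in GENCODE M21. In the deposited coordinates, the end of Elovl1 overlaps that of Cdc20 by 16 bases, and that of Elovl3 overlaps Pitx3 by 9 bases. Cdc20 was at most 0.664 FPKM and Pitx3 at most 0.607 FPKM.

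**Figure D1:**
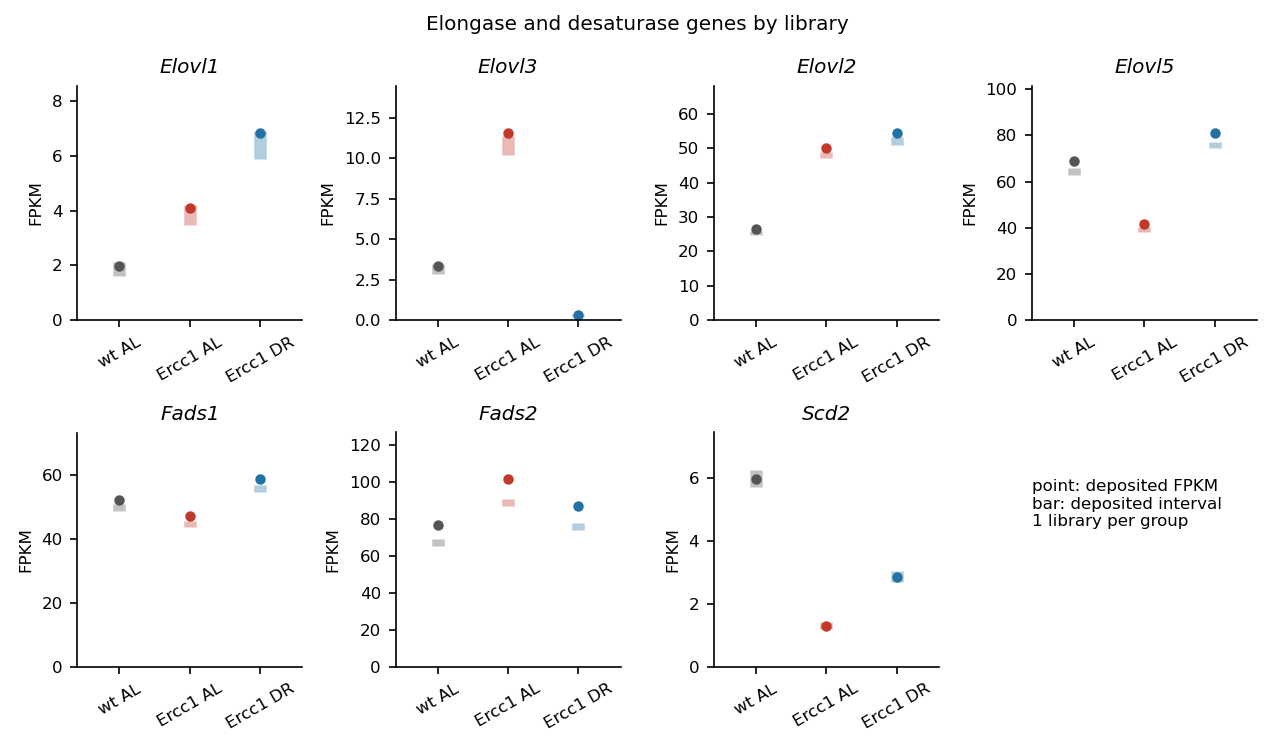
FPKM of the 7 members by library, 1 panel per gene with its own linear axis from 0. Points are deposited FPKM and bars the deposited intervals of 1 library each. Elovl3 ranges from 0.304 to 11.6 FPKM, while Fads1 stays between 47.1 and 58.7 FPKM.

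The order of the members changed between libraries. In wt AL it was Fads2, Elovl5, Fads1, Elovl2, Scd2, Elovl3, Elovl1, and the intervals of Fads2 and Elovl5 overlapped while all other neighbours were separate. In Ercc1 AL it became Fads2, Elovl2, Fads1, Elovl5, Elovl3, Elovl1, Scd2, with no overlap between neighbours. Ercc1 DR gave Fads2, Elovl5, Fads1, Elovl2 again at the top, with overlapping intervals of Fads2 and Elovl5, followed by Elovl1, Scd2 and Elovl3. Among genes with at least 1 FPKM in the library, Scd2 exceeded 72.5% in wt AL, 12.3% in Ercc1 AL and 36.9% in Ercc1 DR. Elovl1 exceeded 36.4%, 59.97% and 64.3% in the same order, and Elovl5 more than 91% in each library (93.6%, 91.5% and 92.9%).

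In the freely fed mutant against wildtype, the comparison for the Ercc1 genotype, Elovl3 was the 1 member at least 2-fold higher and Elovl5 and Scd2 were the 2 members at least 2-fold lower after rescaling. Over all 12294 genes compared, 2.30% were higher by that much and 4.90% lower. As deposited these shares were 5.70% and 2.20%, and 1 member was higher (Elovl3) and 1 lower (Scd2). The members' median log2 ratio was -0.093, beside 0.0071 for all genes compared, and their ratios ran from -1.94 to 1.12.

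Elovl3 had a log2 ratio of 1.12, with 0.90 to 1.28 from the deposited bounds, and 3.47 times the FPKM of wildtype. Scd2 had a log2 ratio of -1.94 (-2.07 to -1.83 from the bounds), its FPKM being 4.58 times higher in wildtype. Elovl5 was at -1.19 rescaled and -0.71 as deposited, lower in the mutant on both scales but past 2-fold on the rescaled one only. Elovl1 and Elovl2 were within the threshold, both at 0.42 rescaled and at 0.78 and 0.90 as deposited. By plain FPKM, without the pseudocount, Elovl1 was 2.08 times higher in the mutant. Fads1 was at -0.63 rescaled and -0.15 as deposited. For Fads2 the direction depended on the scale, with -0.093 rescaled, 0.39 as deposited and 0.056 when rescaled to the FPKM sum without the most abundant genes. The elongases of one pathway thus went in opposite directions, Elovl2 up and Elovl5 down, on each scale tried.

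**Figure D2:**
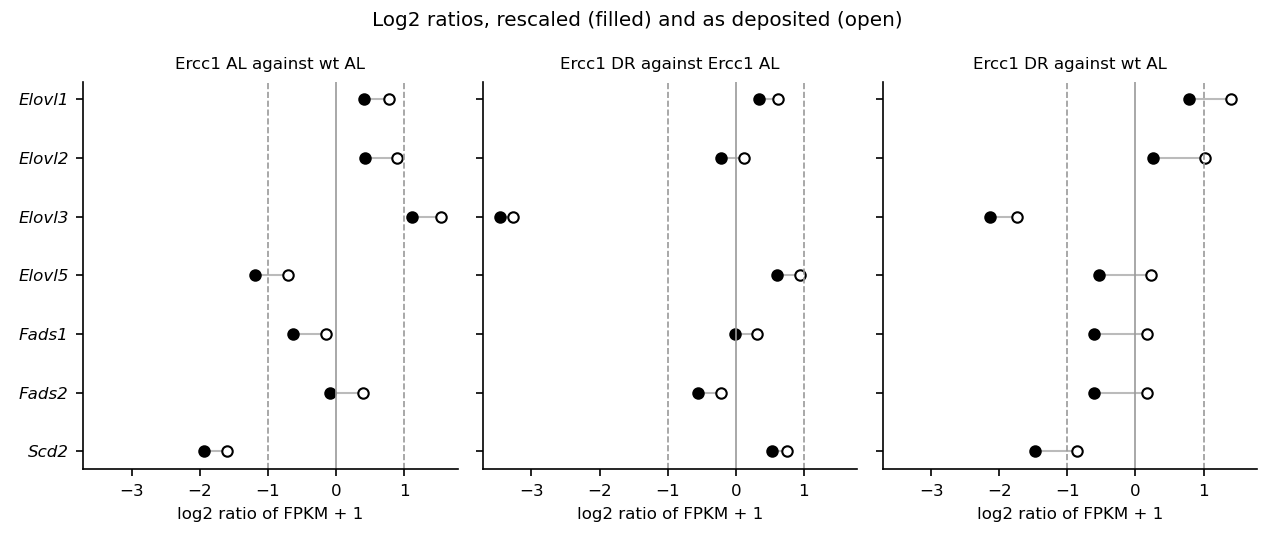
Log2 ratio of FPKM + 1 for each member in the 3 comparisons, rescaled (filled) and as deposited (open), with dashed lines at 2-fold. Elovl3 lies to the right of the line at 1.12 in Ercc1 AL against wt AL and far to the left at -3.46 in Ercc1 DR against Ercc1 AL.

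Under diet restriction within the mutant, ratios of FPKM + 1 gave Elovl3 as the 1 member at least 2-fold lower. By these ratios no member was at least 2-fold higher, rescaled or as deposited, although the plain FPKM of Scd2 was 2.20 times higher. Of 12295 genes compared, 11.9% were at least 2-fold lower and 3.07% higher, and as deposited 8.65% and 6.47%. The members' median was -0.016, beside -0.063 for all genes compared. Elovl3 entered this comparison through the freely fed library alone, being below 1 FPKM under restriction. Its log2 ratio was -3.46 (-3.53 to -3.20 from the bounds), and without a pseudocount its FPKM was 38.1 times higher in the freely fed mutant. Only 0.602% of the genes compared had a lower ratio.

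Elovl5 at 0.61 and Scd2 at 0.53 rescaled were both higher under restriction on every scale tried. By FPKM, Elovl5 was 1.94 times and Scd2 2.20 times higher in the restricted library. Elovl1 was at 0.34 rescaled and 0.62 as deposited, also higher on every scale. Fads2 was lower, at -0.55 rescaled and -0.22 as deposited. Elovl2 (-0.21 rescaled, 0.12 as deposited) and Fads1 (-0.016 and 0.31) changed direction with the scale.

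The restricted mutant was also set against freely fed wildtype, a comparison that shares a library with each of those above. Elovl3 and Scd2 were the 2 members at least 2-fold lower and none was higher after rescaling, Elovl3 being compared through wt AL alone, where 16.4% of 12054 genes were lower and 5.93% higher. As deposited 8.56% were lower and 24.1% higher, and the members split into 1 lower (Elovl3) and 2 higher (Elovl1 and Elovl2). Scd2, at -0.85 as deposited, was not counted there, though its plain FPKM was 2.09 times higher in wt AL. Elovl3 was at -2.13 and Scd2 at -1.47 rescaled, both lower on every scale. Elovl1 was at 0.79 rescaled and 1.40 as deposited and Elovl2 at 0.25 and 1.02, both higher on every scale. Elovl5, Fads1 and Fads2 lay at -0.54, -0.61 and -0.60 rescaled and at 0.23, 0.16 and 0.17 as deposited, so their direction depended on the scale.

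**Figure D3:**
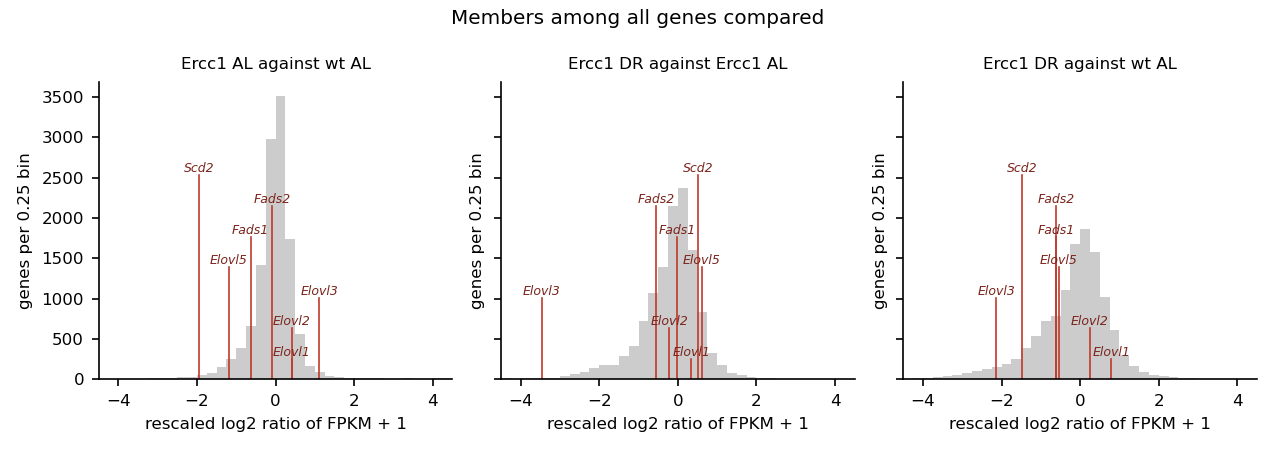
Rescaled log2 ratios of all genes compared (grey bars, genes per bin, linear axis) with the 7 members as red lines, whose heights only separate the names. In Ercc1 AL against wt AL, Scd2 at -1.94 and Elovl3 at 1.12 lie in the tails, and the axis is limited to 4.5 on either side.

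Ratios between members inside a library do not depend on the scaling between libraries. Elovl2 amounted to 0.385 of the FPKM of Elovl5 in wt AL (0.374 to 0.413 from the bounds), to 1.20 in Ercc1 AL (1.17 to 1.28) and to 0.672 in Ercc1 DR (0.661 to 0.715). The balance of these elongases was thus 3.12 times higher in the freely fed mutant than in wildtype, and the restricted mutant lay between them. Fads2 amounted to 1.47 times Fads1 in wt AL, 2.16 times in Ercc1 AL and 1.48 times in Ercc1 DR, and the ratios from the bounds were 1.29 to 1.42, 1.90 to 2.08 and 1.30 to 1.43. The freely fed mutant was the high library here, and the ranges of the other libraries overlapped. Elovl3 was 1.69 times Elovl1 in wt AL, 2.83 times in Ercc1 AL and 0.0443 times in Ercc1 DR. Fads1 to Elovl5 stood at 0.761, 1.13 and 0.724 in the same order of libraries, again with the freely fed mutant apart.

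**Figure D4:**
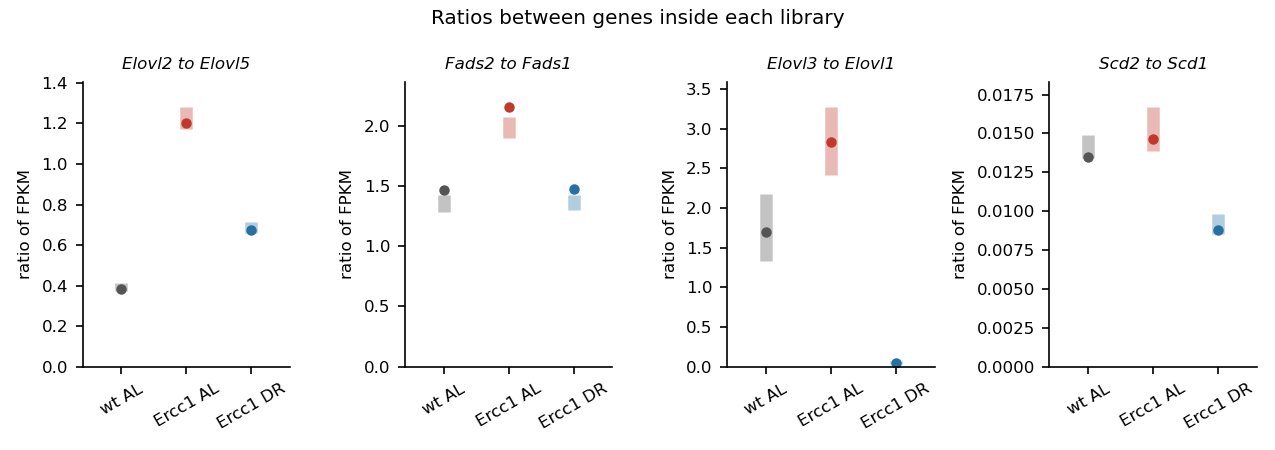
Ratios of FPKM between pairs of genes inside each library (points), with the range from the deposited bounds (bars), on linear axes from 0; points of Fads2 to Fads1 lie above their bars, as the FPKM of Fads2 do above its bounds. The ratio of Elovl2 to Elovl5 is 0.385 in wt AL, 1.20 in Ercc1 AL and 0.672 in Ercc1 DR.

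Scd2 belongs to a cluster of stearoyl-CoA desaturase genes on chromosome 19, with Scd3 49.7 kb before it, Scd4 26.5 kb after it and Scd1 beyond Scd4. All 4 were lowest in the freely fed mutant and highest in wildtype. Scd1, the main liver form, was at 441, 88.7 and 325 FPKM, Scd3 at 12.3, 2.48 and 6.06 FPKM and Scd4 at 6.08, 1.38 and 3.48 FPKM. Between the freely fed libraries the FPKM of Scd1, Scd2, Scd3 and Scd4 were 4.97, 4.58, 4.96 and 4.41 times higher in wildtype. Under restriction Scd1 was 3.66 times higher than in the freely fed mutant, against 2.20 times for Scd2, 2.45 times for Scd3 and 2.52 times for Scd4. Scd2 was 1.35% of Scd1 in wt AL, 1.47% in Ercc1 AL and 0.880% in Ercc1 DR. In the GENCODE M21 transcripts, 217 of 5461 stretches of 50 bases in Scd2 (3.97%) also occur in another gene. Scd1, Scd3 and Scd4 shared the most. How reads from these stretches were assigned is not given in the sources used here, and their part in the low Scd2, Scd3 and Scd4 values was not tested. Elovl2, Elovl3, Elovl5 and Fads1 shared no such stretch with another gene, and Elovl1 shared 4 with Cdc20 and Fads2 shared 5 with Fads3.

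Genes with the most similar pattern were sought among 4440 others with at least 5 FPKM in a library, by the distance between centred, rescaled log2 levels over the 3 libraries. Elovl3 had only 2 genes within 0.25 on this log2 scale, namely Hsd3b5, a steroid reductase (3.17, 10.5 and 0.166 FPKM), and Mup4, a major urinary protein (113, 334 and 37.2 FPKM), followed by Mup16 (2.36, 11.4 and 0.0717 FPKM). The Mup family consists of almost identical copies, which leaves the value of any one of them uncertain. Scd2 had 5 such genes, and the nearest were Scd4, the methyltransferase Inmt (46.6, 15.5 and 24.6 FPKM) and the small GTPase Rab30 (31.6, 11.9 and 19.03 FPKM). Elovl5 had 25, led by Mrps18c of the mitochondrial ribosome (35.4, 21.6 and 42.8 FPKM), Errfi1, an inhibitor of EGF receptor signalling (100.02, 61.3 and 122 FPKM), and Gadd45g (6.18, 3.21 and 6.34 FPKM). The patterns of the others were common, with 787 genes near Elovl1 (first Smek2, Taf15 and Eif2b3), 393 near Elovl2 (Dctn2, Serpina3j and Srp9), 171 near Fads2 (Serpina10, Gjb2 and Cyp4f14) and 129 near Fads1 (Chdh, Slc17a2 and Pomp). Among the members, Elovl3 was at least 1.96 from each other one, whereas Fads1 and Fads2 were 0.44 and Fads1 and Elovl5 0.48 apart.

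Genes around this set were read from 7 lists, whose counts stand beside the shares of all genes compared. In Ercc1 AL against wt AL, 4.90% of all genes were at least 2-fold lower and 2.30% higher after rescaling, and 2.20% and 5.70% as deposited. In Ercc1 DR against Ercc1 AL these shares were 11.9% and 3.07% rescaled, and 8.65% and 6.47% as deposited. Of 9 genes that supply malonyl-CoA for elongation or regulate that supply, 7 were at least 2-fold lower in Ercc1 AL than in wt AL and none higher, with a median log2 ratio of -1.58 beside 0.0071 for all genes compared, and 5 were lower as deposited. Malic enzyme Me1 was at 36.6 FPKM in wt AL, 11.2 FPKM in Ercc1 AL and 16.2 FPKM in Ercc1 DR, and Acacb, an acetyl-CoA carboxylase, at 7.0, 2.08 and 3.55 FPKM. Against the freely fed mutant, 1 of the 9 was at least 2-fold higher under restriction, the citrate lyase Acly (9.78 to 28.8 FPKM), and the median was 0.18. Against wt AL, 5 of the 9 were at least 2-fold lower in Ercc1 DR, where 16.4% of all genes compared were, and the median was -1.45. As deposited 3 of the 9 were lower, with a median of -0.76 and 8.56% of all genes.

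In Ercc1 AL against wt AL, 4.90% of all genes compared were at least 2-fold lower and 2.30% higher. Other elongases and desaturases had 4 of 9 compared genes at least 2-fold lower in Ercc1 AL than in wt AL and none higher (median -0.78). These were Scd1, Scd3, Scd4, which were past 2-fold as deposited too, and Elovl6, the elongase of palmitate, at 13.2 FPKM in wt AL, 8.08 FPKM in Ercc1 AL and 14.03 FPKM in Ercc1 DR. Elovl6 followed the order of Elovl5. Within the mutant, Scd1 was at least 2-fold higher and Elovl4 at least 2-fold lower under restriction (2.85 to 0.796 FPKM), a log2 ratio of -1.30. Elovl4 entered this comparison through the freely fed library alone. Of all genes compared there, 3.07% were at least 2-fold higher and 11.9% lower. The other enzymes of the elongation cycle and the electron chain that feeds desaturases had 1 of 10 lower and none higher in Ercc1 AL (median -0.28), which was Cyb5b at 15.5 against 23.9 FPKM. As deposited none of the 10 was lower and 1 higher, Cyb5, and the median was 0.12, so the direction of this list turned with the scale. Tecrl was the 1 lower gene under restriction (9.63 to 1.76 FPKM). The cytochrome Cyb5, an electron donor of desaturases, went from 225 FPKM in wt AL to 487 FPKM in Ercc1 AL and 860 FPKM in Ercc1 DR, with rescaled log2 ratios of 0.62, 0.48 and 1.15 in the order of the comparisons above.

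Enzymes of peroxisomal shortening, which trims the last intermediate to docosahexaenoic acid, had none of 17 higher and 2 lower in Ercc1 AL against wt AL (median -0.083), and as deposited 1 higher and 2 lower (median 0.27). They had 3 higher and 1 lower under restriction within the mutant, where 3.07% of all genes compared were higher and 11.9% lower. The median of the 17 was 0.20, beside -0.063 for all genes compared. The higher ones were Ehhadh (25.1 to 75.1 FPKM), Acot3 (2.12 to 7.54 FPKM) and the transporter Abcd2 (1.01 to 4.25 FPKM), and the lower one was the thioesterase Acot8 (27.5 to 7.68 FPKM). Genes of activation, remodelling and transport had 1 of 20 higher and 1 lower in Ercc1 AL and 2 higher and 2 lower under restriction. As deposited these were 1 and none in Ercc1 AL, and 4 and 1 under restriction, so that Mfsd2a and Fabp1, named below, were past 2-fold on the rescaled scale only. Acsl4, which activates arachidonic acid, was at 5.04 FPKM in wt AL, 17.2 FPKM in Ercc1 AL and 51.2 FPKM in Ercc1 DR, past 2-fold in both steps. Mfsd2a, a carrier of docosahexaenoyl lysophosphatidylcholine, was at 8.16, 4.88 and 7.22 FPKM, and Lpcat3, which puts polyunsaturated chains into phospholipids, at 1.64, 3.39 and 9.50 FPKM. The fatty acid carrier Cd36 was higher under restriction (8.45 to 44.9 FPKM). Acsl6 (162 to 63.2 FPKM) and Fabp1 (939 to 494 FPKM) were lower, with log2 ratios for Acsl6 of -1.68 rescaled and -1.35 as deposited.

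Of 23 compared genes for regulators, none was past 2-fold in Ercc1 AL against wt AL (median 0.069). Srebf1 was at 3.57, 5.09 and 9.12 FPKM, with rescaled log2 ratios of 0.015 and 0.44 in the first and second comparison. Nr1h3, which encodes LXR-alpha, was at 5.76, 9.42 and 9.21 FPKM, and Ppara at 9.34, 17.9 and 23.1 FPKM. Insig2, which retains SREBP in the endoplasmic reticulum, was at 11.1, 17.6 and 44.9 FPKM, and Insig1 at 8.91, 16.2 and 18.7 FPKM. Under restriction 1 of 25 was at least 2-fold higher, Ppargc1a (0.811 to 3.2 FPKM), and none was lower, against 2 higher and none lower as deposited. Ppargc1a, at a rescaled log2 ratio of 1.01, entered this comparison through the restricted library alone. Of all genes compared there, 3.07% were at least 2-fold higher and 11.9% lower. Messenger levels do not show how much of these proteins was active.

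**Figure D5:**
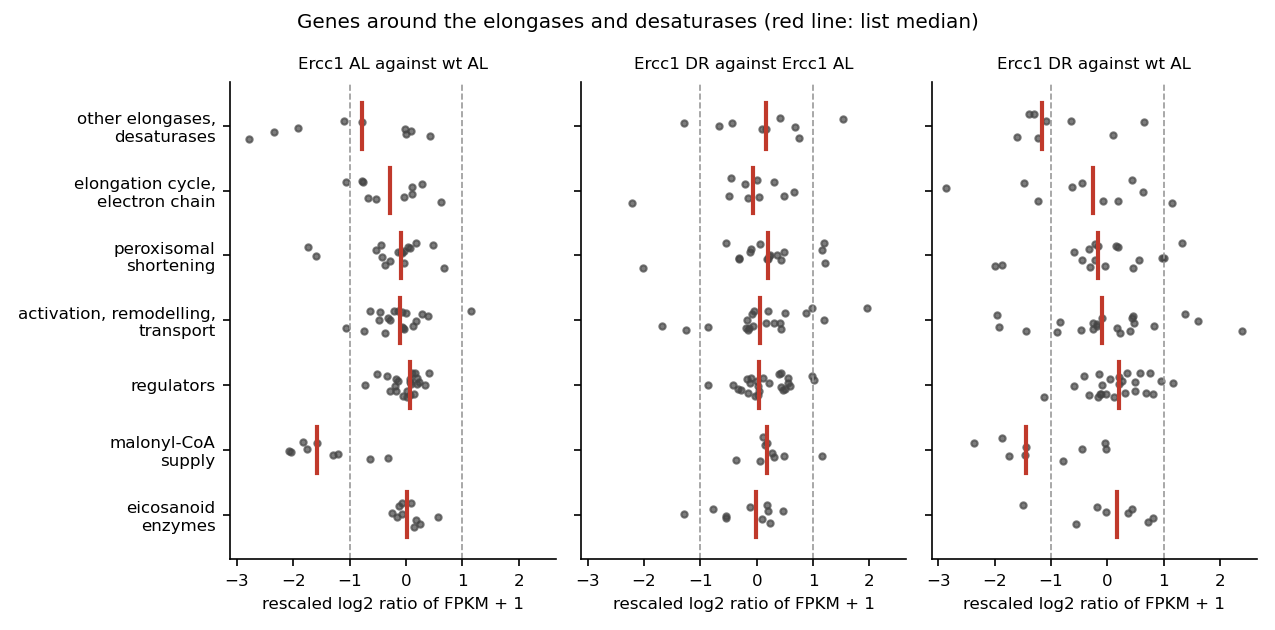
Rescaled log2 ratios of FPKM + 1 for the genes of 7 lists in the 3 comparisons (points, spread vertically at random), with the list median in red and dashed lines at 2-fold. The median of the malonyl-CoA list is -1.58 in Ercc1 AL against wt AL and that of the regulators 0.069.

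Markers of the cells that liver RNA can hold are given as summed FPKM, which still hold the general shift between libraries. All 10 measured hepatocyte markers were above 1 FPKM in each library, and albumin had no estimate. Their summed level was 3087 FPKM in wt AL, 4413 FPKM in Ercc1 AL and 9086 FPKM in Ercc1 DR. After rescaling, their median log2 ratio was 0.062 in Ercc1 AL against wt AL, with none of 10 past 2-fold. It was 0.58 in Ercc1 DR against Ercc1 AL, with 3 of 10 at least 2-fold higher, as were 3.07% of all genes compared. Endothelial markers summed to 35.8, 28.6 and 16.8 FPKM over 10 genes in the same order, cholangiocyte markers to 8.93, 6.54 and 6.17 FPKM over 7 genes, macrophage markers to 20.3, 27.6 and 18.6 FPKM over 9 genes and stellate cell markers to 23.6, 37.5 and 40.5 FPKM over 9 genes. Most of the stellate sum was Dcn (13.5, 24.5 and 30.8 FPKM), and the rescaled stellate median went the other way in Ercc1 DR, at -0.56 against Ercc1 AL and -0.48 against wt AL. Erythroid markers summed to 174, 109 and 169 FPKM over 6 genes, most of it Hba-a2 (144.5, 72.3 and 150.7 FPKM), while Alas2 was at 3.10, 14.8 and 2.50 FPKM. Neutrophil markers summed to 8.58, 6.50 and 3.24 FPKM over 6 genes, the largest part being Mpo (6.41, 3.50 and 1.24 FPKM). By FPKM, S100a8, S100a9, Elane, Ngp and Camp were each higher in Ercc1 AL than in wt AL, against the direction of Mpo. T, B and NK cell markers summed to 27.0, 16.4 and 7.14 FPKM over 8 genes, most of it Cd79b. The 9 adipocyte markers summed to 157, 246 and 258 FPKM, 3 of them reaching 1 FPKM in each library. Most of the sum was Pck1 (136, 194 and 234 FPKM), which hepatocytes express. Retn was at 18.5, 46.1 and 18.9 FPKM and Fabp4 at 1.16, 2.93 and 4.19 FPKM. The other 6 were below 1 FPKM, Adipoq being at 0.320, 0.492 and 0.149 FPKM. The lowest marker was Hba-a1, at 5.6e-05 FPKM in Ercc1 DR, in effect 0, against 1.60 FPKM in wt AL. The clock repressor Nr1d1, a known regulator of Elovl3, was at 1.52, 1.45 and 0.503 FPKM. The part of these differences in the members' values was not tested.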

How the data were processed

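The authors deposited 1 table of FPKM per library, with bounds and a status code per gene, per the file headers. Reads were placed on mm10, per the submitters' processing notes. The sources used here do not name the program, the annotation, the use of strand or the level of the interval, so reads of overlapping antisense genes may not be separated. RNA was depleted of ribosomal RNA (RiboMinus) and prepared with a TruSeq v3 protocol, per the labels' protocols. Rows with status HIDATA or FAIL (62 in wt AL, 96 in Ercc1 AL and 56 in Ercc1 DR) were treated as missing; no member was among them. Where a symbol had several rows, that of the highest mean was kept.

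For each pair of libraries, FPKM were rescaled to a median log2 ratio of 0 over genes with at least 1 FPKM in all 3, with the shift shared equally between both. The log2 ratio of FPKM + 1 was taken over genes with at least 1 FPKM in either library, and genes past 2-fold were counted. Implied fragments take each bound as 2 SD from the midpoint, so that depth rests on that assumption. The calculation was tested on simulated data. With 1 library per group no test was possible. The members and gene lists were chosen with earlier results of these data known. The rule for naming took the members, the up to 4 largest ratios past 2-fold per list and comparison, chosen regulators and paralogs, and the 3 genes nearest in pattern. Not every large ratio it gave was described above, and those left out include Thrsp, Acss2, Acaa1b, Hsd17b12 and Decr2. Lpcat3, Adipoq, Retn, Fabp4, Dcn, Hba-a1, Hba-a2, Alas2, Cd79b, Cdc20, Pitx3, Ephx2, Ptgs1, Ptgs2, Ptges3 and Degs1 fall outside this rule and were named after their values were seen. So were the markers Pck1, Mpo, S100a8, S100a9, Elane, Ngp and Camp. Alternatives were the deposited scale, other bases of rescaling, the interval midpoint, the pseudocount and the filter. Python 3.11.15, pandas 2.3.3 and numpy 2.4.6 were used.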

Additional observations from a re-analysis of the deposited data

How the results depend on the processing

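Of the 21 member ratios, none past 2-fold turned its direction under the 7 alternatives. All kept their direction and side of 2-fold with the midpoint of the interval and with genes of at least 5 FPKM as the base of the rescaling. A change of filter cannot alter a ratio, since it only decides which genes are compared. As deposited, 6 ratios changed sign and 4 crossed 2-fold, and rescaling to the FPKM sum changed the sign of 1, Fads2 in Ercc1 AL against wt AL. By construction the as-deposited setting leaves in the general shift between libraries. The count of members at least 2-fold lower in Ercc1 AL against wt AL went from 2 to 1 as deposited, and in Ercc1 DR against wt AL from 2 to 1, with 2 higher in place of 0. Of 98 pathway genes compared, 4 in place of 1 were at least 2-fold higher in Ercc1 AL against wt AL. Among all genes compared, 5.70% in place of 2.30% were. In Ercc1 DR against wt AL, 28 of 98 were higher in place of 7 and 9 lower in place of 20. Among all genes compared there, 24.1% in place of 5.93% were higher and 8.56% in place of 16.4% lower. With at least 5 FPKM in either library, 1 member was lower in Ercc1 DR against wt AL, because Elovl3 was not compared. With a pseudocount of 0.1, pathway genes lower in Ercc1 DR against Ercc1 AL numbered 11 of 100 in place of 6. The share of all genes lower, 11.9% with a pseudocount of 1, was not counted with 0.1. The Elovl3 ratio in that comparison was -5.15 with 0.1 in place of -3.46, because less is added to low values. The midpoint of the interval, tried after seeing the data for ratios inside a library, gave 0.393, 1.23 and 0.688 for Elovl2 to Elovl5 and 1.35, 1.99 and 1.36 for Fads2 to Fads1, in the order wt AL, Ercc1 AL, Ercc1 DR. No paired analysis was possible because each group has 1 library. Depth limits Elovl3 in Ercc1 DR most, at 45 implied fragments.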

Other observations

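Enzymes that use the polyunsaturated products were mostly within 2-fold. Of 10 compared eicosanoid genes in Ercc1 AL against wt AL none was past it (median log2 ratio 0.014 rescaled, beside 0.0071 for all genes compared), and as deposited 1 was, Ptges3, at 1.02 and higher in the mutant. Under restriction within the mutant 1 of 10 was at least 2-fold lower and none higher, beside 11.9% and 3.07% of all genes compared. The lower gene was Cyp2j5, an epoxygenase of arachidonic acid, at 34.4 FPKM in wt AL, 40.4 FPKM in Ercc1 AL and 20.3 FPKM in Ercc1 DR. Its log2 ratio was -1.28 rescaled and -0.96 as deposited, so that none of the 10 was past 2-fold as deposited. Ephx2, the soluble epoxide hydrolase, was at 68.5, 86.7 and 116 FPKM in the same order, with rescaled log2 ratios of -0.15 and 0.086 in the genotype and the diet comparison. Ptgs1 and Ptgs2, the cyclooxygenase genes, stood at 1.23, 1.59 and 1.01 FPKM and at 0.690, 0.345 and 0.145 FPKM.

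The dihydroceramide desaturase genes of sphingolipid synthesis differed from each other. Degs1 was at 4.89 FPKM in wt AL, 9.64 FPKM in Ercc1 AL and 13.9 FPKM in Ercc1 DR, the order seen for Elovl1, and Degs2 at 2.34, 1.43 and 0.718 FPKM, the opposite order. Their rescaled log2 ratios in Ercc1 DR against wt AL were 0.64 and -1.40, and as deposited 1.34 and -0.96. Degs2 entered this comparison through wt AL alone.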
